A study of Brachypodium distachyon with 11 samples.

Results

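ELF3 binding at zeitgeber time 20 (ZT20, 20 h after lights on) was compared with ELF3 binding at ZT0 (lights on) in seedlings of Brachypodium distachyon, cultivar Bd21-3, a small grass related to wheat and barley. The comparison rests on 4 peak lists, each from 1 chromatin immunoprecipitation and sequencing (ChIP-seq) library: long days (LD) and short days (SD) at ZT20, and LD and SD at ZT0. Overlapping peaks of the 4 lists were joined into 27004 regions. The regions of interest were the 866 with a peak in both ZT20 lists and neither ZT0 list (3.21% of all, "ZT20-only") and the 839 with a peak in both ZT0 lists and neither ZT20 list (3.11%, "ZT0-only"), 1705 regions in all. All 4 groups carried the same transgene, ELF3_OX, in which FLAG-tagged ELF3 is driven by a ubiquitin promoter, and all were 2-week-old seedlings grown at 20 °C. ELF3 was therefore made in tissues and at hours set by a constitutive promoter, in homozygous lines with a single insertion, and no FLAG immunoprecipitation from untransformed plants was analysed here. The amount of protein need not be constant, however. The paper reports that ELF3 from this transgene built up during the night, fell rapidly in light and was lower in LD than in SD. How far the amount of ELF3 differed between the 4 groups was not tested here. If the light periods were those of the study's other experiments (20 h in LD, 12 h in SD), ZT20 closes the light period in LD but falls in darkness in SD, so the ZT20 lists differ in light state as well as day length. The series holds 10 ChIP peak lists in all. The other 6 (ELF3 in constant light, LL, at ZT0, ELF3 at ZT4 in LD and in SD, 2 libraries of PHYC in LD at ZT20, and PRR37 in LD at ZT4) were not used to choose the regions.

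ELF3 is a scaffold protein of the evening complex, a repressor of the plant circadian clock in which ELF4 and the DNA-binding protein LUX are its partners. ELF3 does not bind DNA itself and reaches chromatin through such partners. In grasses the complex holds back flowering in short days, and loss of ELF3 gives early flowering. The comparison asks whether late-night or end-of-day ELF3 occupies other sites than ELF3 at lights on.

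Each condition had 1 library, so a region has no replicate check within a condition, and the 2 photoperiods served as the 2 observations of each time, so that p-values measure the spread between these libraries only. The lists hold 14346 peaks (LD ZT20), 14418 (SD ZT20), 15577 (LD ZT0) and 14823 (SD ZT0), called at p under 0.1. A peak's fold enrichment is its fragment pile-up over the level that the peak caller took as local background. With 1 background level shared by all libraries, the fold and p of a peak give back the whole number of ChIP fragments over its summit, and the size of each library relative to the control behind that level. This ratio was 6.36 in LD ZT20, 8.65 in SD ZT20, 6.73 in LD ZT0 and 3.75 in SD ZT0. The LD libraries were thus nearly equal in depth (ZT20 over ZT0 0.944), whereas the SD ZT20 library was 2.30 times as deep as the SD ZT0 library. At genome background a site needed at least 20, 26, 21 and 12 fragments, in that order, to be listed. The part that depth played in the results below was not tested.

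The 2 directions were about equally common, and regions shared by time were no more common than regions shared in other ways. Listing in all 4 lists was the most common combination (6152 regions, 22.8%), and 11811 regions (43.7%) were in 1 list only, spread over the 4 lists. Among the 6 ways of being in exactly 2 lists, the LD pair (both LD lists, no SD list) held 996 regions, LD ZT0 with SD ZT20 held 956, the ZT20 pair 866, the ZT0 pair 839, the SD pair 794, and LD ZT20 with SD ZT0 held 676. The ZT20-only and ZT0-only counts therefore lie in the middle of the range that pairs of lists gave, and below 2 pairs that mix the times.

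**Figure D1:**
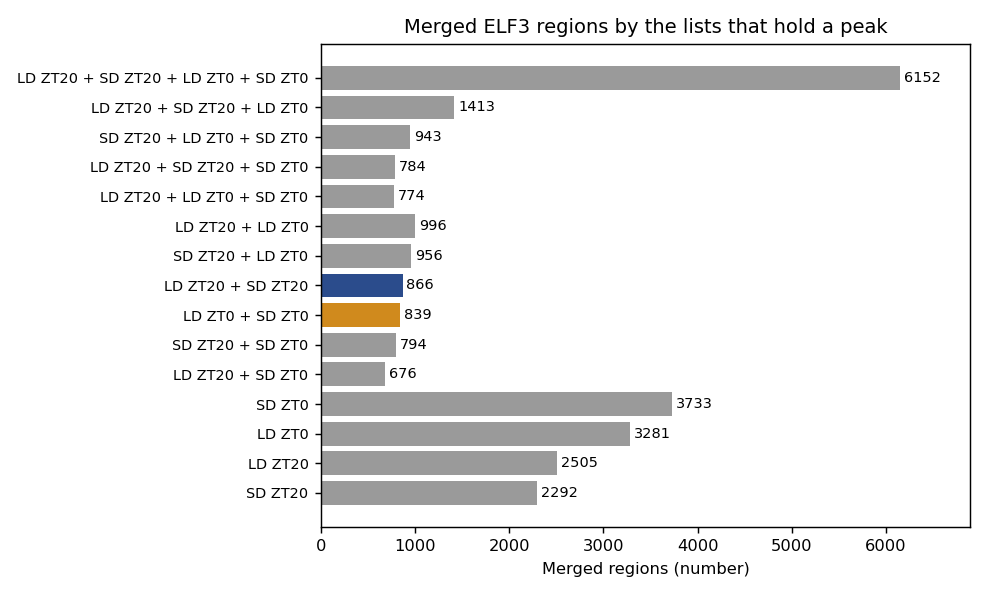
Number of merged ELF3 regions (horizontal axis) for each combination of lists that hold a peak (vertical axis), with 1 bar per combination and 1 library behind each list. The ZT20-only (blue, 866) and ZT0-only (orange, 839) bars lie between the other 2-list bars, which run from 676 to 996.

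On average the lists of 1 time were about as alike as lists of different times. Over base pairs, the Jaccard index (shared over joint length) was 0.425 for the 2 ZT20 lists and 0.348 for the 2 ZT0 lists. Between times it was 0.405 for LD, 0.371 for SD, 0.417 for SD ZT20 against LD ZT0 and 0.349 for LD ZT20 against SD ZT0. The mean was 0.387 within and 0.385 between times, a difference of 0.00121 (exact one-sided permutation over the 3 ways of pairing 4 lists, p = 0.667, where 0.333 is the smallest p possible). The 3 lowest indices all involved the SD ZT0 library, the shallowest of the 4. List length was lower at ZT20 in both photoperiods, with a log2 ratio of -0.12 in LD and -0.04 in SD (mean -0.08 ± 0.06, SD, n = 2), and the exact two-sided sign-flip permutation test gave p = 0.5, the smallest it can give.

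Both sets consisted of weak peaks. The rule fixed this in part, since a member had to lack a peak in both lists of the other time, whereas regions of all 4 lists had none missing. Folds and fragments of the other pairs of lists are not given here, so weakness is not read as particular to the pairs by time. In the ZT20-only regions the median fold enrichment was 2.24 in LD ZT20 and 2.14 in SD ZT20, against 2.75 and 2.66 in the same libraries for regions of all 4 lists. In the ZT0-only regions the medians were 2.19 in LD ZT0 and 2.24 in SD ZT0, against 2.75 and 2.75. In fragments, the median ZT20-only summit carried 36 in LD ZT20 and 48 in SD ZT20, and the median ZT0-only summit 39 in LD ZT0 and 24 in SD ZT0. These medians stand above the listing minimum at genome background but below the 48, 65, 50 and 30 fragments (LD ZT20, SD ZT20, LD ZT0, SD ZT0) of regions in all 4 lists. None of the 866 ZT20-only regions passed a deposited q under 0.01, the threshold that the study states, in either list. Of the 839 ZT0-only regions 1 passed it, in SD ZT0 alone, at Bd4:22571430-22571726 (fold 3.67 in SD ZT0 and 2.2 in LD ZT0, no gene within 2 kb). At p under 0.01 in both lists, 195 ZT20-only (22.5%) and 188 ZT0-only regions (22.4%) remained.

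The listing threshold also decided which regions counted. The weakest member had −log10 p of 1.01 in the ZT20-only set and 1.00 in the ZT0-only set. On the other side of the threshold, 2197 regions with both ZT20 peaks were left out because 1 ZT0 list also held a peak, and in 904 of them that peak had −log10 p under 2. The same held for 1717 regions with both ZT0 peaks, 879 of them through a peak that weak at ZT20. The median width was 267 bp for ZT20-only and 299 bp for ZT0-only regions. It was 279 bp for all regions in exactly 2 lists and 272 bp for all merged regions. Regions of all 4 lists, which join more peaks, had 397 bp.

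**Figure D2:**
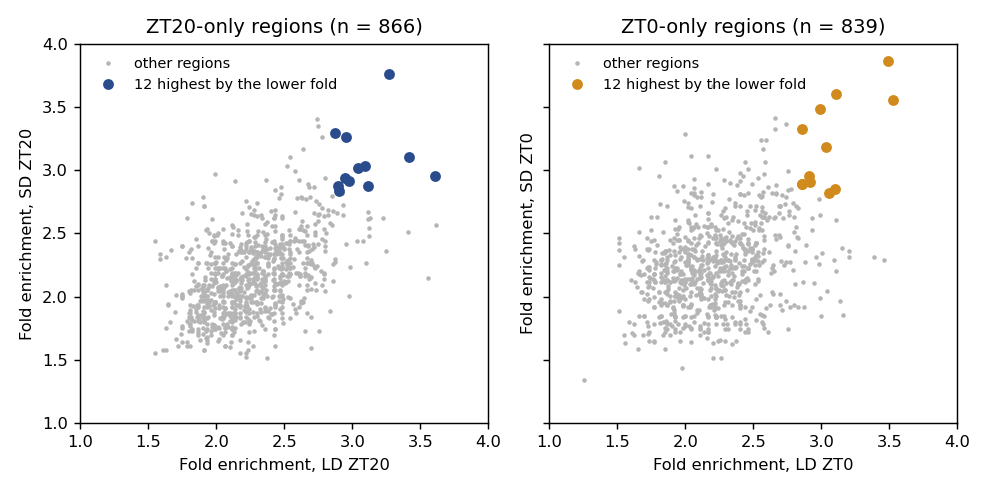
Fold enrichment in the LD list (horizontal axis) against that in the SD list (vertical axis) for the ZT20-only (left) and ZT0-only regions (right), 1 point per region, with the 12 of highest lower fold in colour. Most points lie near 2 on both axes and the lower of the 2 folds never exceeds 3.27 (left) or 3.53 (right).

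Of the 12 strongest ZT20-only regions, 10 had a gene within 2 kb, and CAD5 was among these genes the one with a name rather than a number in the RefSeq table. The highest region, Bd2:53141451-53141654, had fold enrichments of 3.27 in LD ZT20 (56 fragments) and 3.76 in SD ZT20 (89 fragments), with no gene within 2 kb. The next, Bd3:50749519-50749729, overlapped the protein-coding gene LOC100825514, with 3.41 in LD ZT20 (63 fragments) and 3.11 in SD ZT20 (75 fragments). At Bd2:10043911-10044137, which overlapped LOC100828073, the folds were 3.09 in LD ZT20 (60 fragments) and 3.03 in SD ZT20 (88 fragments). The fourth, Bd2:57612169-57612609, had 3.04 and 3.02 and was listed in none of the other 6 libraries. Only these 4 reached a 3-fold enrichment in both ZT20 lists.

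The rest of the 12 strongest ZT20-only regions had lower folds between 2.84 and 2.96. They overlapped LOC100824610, LOC100844704, LOC100826086, LOC100832996, LOC100830088, LOC100829388 and LOC100822914, and 1 lay 1954 bp from CAD5, a member of the cinnamyl alcohol dehydrogenases that make lignin precursors. At CAD5 the folds were 3.11 in LD ZT20 (53 fragments) and 2.88 in SD ZT20 (66 fragments), but all 4 lists held a peak within 2 kb of the gene. Of the 12, 8 had their summit 500 bp or less from an end of a protein-coding gene, and 11 were also listed in the ELF3 LL library, which was harvested at ZT0.

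The strongest ZT0-only region, Bd4:24501604-24501839, overlapped the long non-coding RNA gene LOC104584580, with fold enrichments of 3.53 in LD ZT0 (68 fragments) and 3.56 in SD ZT0 (42 fragments). At Bd2:3575247-3575473, in the protein-coding gene LOC100844985, the folds were 3.49 in LD ZT0 (63 fragments) and 3.87 in SD ZT0 (43 fragments). At Bd1:49184928-49185258, in LOC104581658, they were 3.1 in LD ZT0 (46 fragments) and 3.60 in SD ZT0 (33 fragments). The fourth, Bd1:25176792-25177040, overlapped the long non-coding RNA gene LOC106865816, with 3.04 in LD ZT0 (75 fragments) and 3.18 in SD ZT0 (44 fragments). The SD ZT0 summits held fewer fragments than the LD ZT0 summits at similar folds.

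The other 8 of the 12 strongest ZT0-only regions had lower folds between 2.82 and 2.99. They overlapped LOC100834851, LOC100833230, LOC100821648 and LOC100826009, or lay beside LOC100831488, LOC100844338 and the pair LOC100845416 and LOC100845716, and 1, Bd1:10165366-10165584, had no gene within 2 kb. Of the 12, 5 had their summit that close to a gene end and 7 were listed in ELF3 LL at ZT0.

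Both sets held a lower share of summits at gene ends than regions of all 4 lists, as did the other regions in exactly 2 lists. The strongest summit was 500 bp or less from an end of a protein-coding gene in 43.0% of ZT20-only regions (95% Wilson interval 39.7 to 46.3) and 41.1% of ZT0-only regions (37.8 to 44.5), against 60.4% of regions in all 4 lists and 45.4% of all merged regions. The share was 43.9% over all regions in exactly 2 lists. In the 4 pairs that are not pairs by time it ran from 40.5% to 47.8%, a range that holds both sets. The 2 sets parted inside and beyond genes. Summits farther inside a gene made up 23.6% of ZT20-only regions (20.9 to 26.5) but 17.3% of ZT0-only regions (14.9 to 20.0). Summits 500 bp to 2 kb from a gene made up 12.8% (10.8 to 15.2) and 18.8% (16.3 to 21.6). These intervals cover counting error only. In the 4 pairs that are not pairs by time, the share inside a gene ran from 18.0% to 20.7% and the share at 500 bp to 2 kb from 14.6% to 17.5%, so on both measures the 2 time pairs were the extremes of the 6.

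The 6 libraries that the rule did not use could not show whether presence follows the time of harvest. None of them was ELF3 at ZT20, and the only ZT0 library came from constant light, so time was mixed with protein and light regime. ELF3 LL at ZT0 listed 51.7% of the ZT20-only regions (48.4 to 55.0) and 43.1% of the ZT0-only regions (39.8 to 46.5), so a ZT0 library held more of the ZT20-only than of the ZT0-only regions. ELF3 at ZT4 in LD listed 45.4% and 31.0%, and ELF3 at ZT4 in SD 37.0% and 29.7%. The PHYC libraries, harvested at ZT20 in LD, listed 34.4% and 34.2% in the first and 22.7% and 31.9% in the second. PRR37 at ZT4 listed 26.4% and 34.0%. Over all merged regions the shares were 50.3% in ELF3 LL, 45.2% and 40.4% in ELF3 at ZT4 in LD and SD, 41.0% and 35.4% in PHYC and 37.7% in PRR37. The ZT20-only shares were thus close to those of all regions in ELF3 LL and ELF3 LD ZT4 and lower in the other 4 libraries, and the ZT0-only shares were lower in all 6. Against the 4 pairs of lists that are not pairs by time, 1 of the 12 shares lay outside their range, that of the ZT0-only regions in ELF3 LD ZT4 (31.0%, range 37.9% to 47.1%). Regions listed in none of the 6 numbered 115 (13.3%) among ZT20-only and 141 (16.8%) among ZT0-only regions, against 15.5% of all regions in exactly 2 lists. Regions of all 4 lists had shares of 74.5% to 94.0%.

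**Figure D3:**
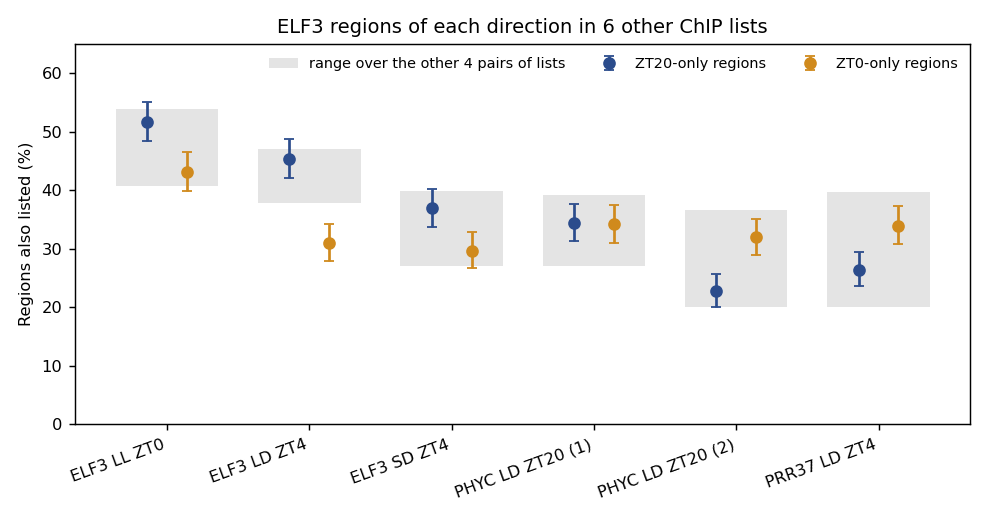
Share of the ZT20-only (blue, n = 866) and ZT0-only regions (orange, n = 839) also listed in 6 other ChIP libraries, in percent, with 95% Wilson intervals, over grey bands that span the other 4 pairs of lists. The 3 ELF3 libraries hold higher shares of the ZT20-only regions and the second PHYC and the PRR37 library higher shares of the ZT0-only regions, and the ZT0-only point in ELF3 LD ZT4 (31.0%) lies below its band.

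Seen by gene, the picture was the same. A protein-coding gene counted as bound when a peak met its body extended by 2 kb, here with all deposited peaks (p under 0.1) and no filter on q. Of 25449 genes, 11378 (44.7%), 11258 (44.2%), 11790 (46.3%) and 11445 (45.0%) were bound in LD ZT20, SD ZT20, LD ZT0 and SD ZT0. Of these genes 6856 were bound in all 4 lists, 453 (1.78%) in both ZT20 lists and neither ZT0 list, and 514 (2.02%) in both ZT0 lists and neither ZT20 list. The other 4 pairs of lists gave 428 to 564 genes. More genes lay beside a region of either set, 894 for ZT20-only and 833 for ZT0-only regions, since a gene can have a further peak in another list. Of these, 31 genes had regions of both sets within 2 kb. The gene with most was LOC100835057, with 3 ZT20-only regions, chosen after its values were seen. Their folds were 2.61, 2.27 and 2.11 in LD ZT20 and 2.44, 2.35 and 2.22 in SD ZT20.

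Small RNA genes were among the neighbours of both sets, and those named here were chosen after their values were seen. A microRNA gene lay within 2 kb of 5 ZT20-only regions (0.577%) and 5 ZT0-only regions (0.596%), against 0.593% of all merged regions. MIR172A encodes a microRNA that targets AP2-like repressors of flowering. It had 2 ZT0-only regions and no ZT20 peak within 2 kb. The first, Bd3:55493981-55494248, overlapped the gene, with folds of 2.09 in LD ZT0 (38 fragments) and 2.29 in SD ZT0 (26 fragments). The second, 687 bp away at Bd3:55494768-55494999, had 2.19 in LD ZT0 (43 fragments) and 2.15 in SD ZT0 (26 fragments). At MIR408, whose product targets transcripts of copper proteins, a ZT0-only region overlapped the gene with 2.99 in LD ZT0 (94 fragments) and 1.99 in SD ZT0 (41 fragments). In the other direction, a ZT20-only region overlapped MIR169C, of a family that targets NF-YA transcription factors, with 2.73 in LD ZT20 (51 fragments) and 2.05 in SD ZT20 (52 fragments). A second member of that family, MIR169K, lay 648 bp from a ZT20-only region with 2.5 in LD ZT20 and 2.38 in SD ZT20, but it also had a peak in LD ZT0. None of these peaks passed q under 0.01. Other MIR169 genes varied in the lists that held a peak within 2 kb. MIR169A had peaks in SD ZT20 and both ZT0 lists, MIR169M in SD ZT0 alone and MIR169F in SD ZT20 alone. MIR169B and MIR169N had peaks in all 4 lists, and the rest of the family had none.

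Genes of small nucleolar RNAs (snoRNAs), which guide the modification of ribosomal RNA, lay within 2 kb of 8 ZT0-only regions (0.954%, 0.484 to 1.87) and 0 ZT20-only regions (0 to 0.442), against 0.348% of all merged regions. The other 4 pairs of lists gave 0 to 4 such regions. Because snoRNA genes stand in clusters, the 8 regions accounted for 27 of the 299 snoRNA genes in the table. Of these 27 genes, 13 had peaks within 2 kb in both ZT0 lists and neither ZT20 list, while 10 had peaks in all 4 lists. At the largest cluster, Bd1:27903945-27904259 with 7 genes within 2 kb, the folds were 2.21 in LD ZT0 (40 fragments) and 2.46 in SD ZT0 (26 fragments). All 7 genes, however, also had peaks within 2 kb in both ZT20 lists. The highest, Bd3:49421770-49422282, lay 751 bp from LOC112272072 and overlapped LOC100840451, with 2.74 in LD ZT0 (43 fragments) and 2.73 in SD ZT0 (27 fragments). With peaks at p under 0.01 only, the counts were 2 ZT0-only regions and 1 ZT20-only region. With the SD lists alone, 18 of 6080 regions listed at ZT0 only and 19 of 5611 listed at ZT20 only lay that close. With the LD lists alone they were 22 of 6128 and 8 of 4908, so the contrast was absent in SD.

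The families that the table names are small, so their counts are given beside the shares of all protein-coding genes bound at ZT20 only (1.78%) or at ZT0 only (2.02%), with nothing read from them. Of 9 MAP kinase cascade genes, which relay stress and developmental signals, MPK11 was bound at ZT0 only, through a region overlapping it with 2.29 in LD ZT0 and 2.70 in SD ZT0. MPK14 had a ZT20-only region 1657 bp away (1.95 in LD ZT20 and 1.93 in SD ZT20) and a ZT0-only region overlapping it (1.7 in LD ZT0 and 2.18 in SD ZT0). Of 7 SWN genes, NAC-type regulators of secondary cell walls, SWN6 was bound at ZT0 only (1.72 in LD ZT0 and 1.7 in SD ZT0, 483 bp away). SWN7 had a ZT20-only region 38 bp away, with 2.15 in LD ZT20 and 2.13 in SD ZT20, but was bound in all 4 lists. Of 5 NDPK genes, which balance nucleoside triphosphates, NDPK4 and NDPK5 were bound at ZT0 only, NDPK4 with 2.36 in LD ZT0 and 2.30 in SD ZT0. None of the 5 CBF genes, regulators of cold tolerance, and none of the 3 MADS-box genes was bound in both lists of 1 time and neither list of the other, although AGL6, a MADS-box gene, had a peak in SD ZT20 alone. The 3 YS1/YSL iron transporter genes had no peak in any of the 4 lists. Of the CBF genes 3 (CBF3, CBF4, CBF7) were bound in all 4 lists, as were VRT-2 and MADS2. The 30 identifiers of clock and flowering genes taken from the study matched no row of the table, so those genes are not reported here.

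Stronger sites were seen at both times. At q under 0.01 the 4 lists held 341 (LD ZT20), 167 (SD ZT20), 322 (LD ZT0) and 490 peaks (SD ZT0), which gave 691 regions. Of these, 103 passed in all 4 lists, 8 in both ZT20 lists and neither ZT0 list (1.16%), and 46 in both ZT0 lists and neither ZT20 list (6.66%). LD ZT20 with SD ZT0, a pair that mixes times, gave 45, the LD pair 32, the SD pair 8 and SD ZT20 with LD ZT0 gave 5. The 3 pairs with SD ZT20, the list with fewest such peaks, were the smallest. All 8 and all 46 regions had a deposited peak in all 4 lists, so none of them was without a peak at the other time.

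The choice of these sites by q fixed the direction of their fold enrichments in part. At the 8 sites the medians were 4.61 in LD ZT20 and 4.45 in SD ZT20, against 3.84 in LD ZT0 and 3.72 in SD ZT0. The highest, Bd2:13238257-13238544 overlapping LOC100826531, had 5.44 in LD ZT20, 4.90 in SD ZT20, 4.11 in LD ZT0 and 4.39 in SD ZT0. The widest gap was at Bd1:3738212-3738951, 1805 bp from LOC100837119, with 4.61, 4.56, 3.04 and 3.31 in the same order. Of the 8, all passed q under 0.01 in the first PHYC library, 5 in the second, 6 in ELF3 LL at ZT0, 6 and 1 in ELF3 at ZT4 in SD and LD, and 2 in PRR37. Over all 691 regions these shares were 52.2% and 21.4% in PHYC, 59.0% in ELF3 LL, 27.8% and 31.3% in ELF3 at ZT4 in SD and LD, and 4.92% in PRR37. Many of the 691 passed in 1 list only. Among the 103 that passed in all 4 lists the shares were 87.4% and 61.2% in PHYC and 97.1% in ELF3 LL. In ELF3 at ZT4 in SD and LD they were 81.6% and 78.6%, and in PRR37 27.2%. The midpoint was 500 bp or less from a gene end at 7 of the 8, against 70.8% of the 691.

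At the 46 sites the medians were 4.43 in LD ZT0 and 4.49 in SD ZT0, against 3.77 in LD ZT20 and 3.59 in SD ZT20, and 38 of the 46 had their midpoint 500 bp or less from a gene end. The fold was higher at ZT0 in both photoperiods at 45 of the 46, a count that the choice by q fixed in part. A pair of neighbouring sites on chromosome 3 headed the set. Bd3:13801430-13802400 had 5.95 in LD ZT0, 6.27 in SD ZT0, 3.97 in LD ZT20 and 4.12 in SD ZT20. Bd3:13805022-13806295, overlapping LOC100830331, had 5.44 in LD ZT0, 5.43 in SD ZT0, 3.98 in LD ZT20 and 3.38 in SD ZT20. Of the 46, 28 passed in ELF3 LL at ZT0, 26 in the first PHYC library, 12 in the second, 11 and 9 in ELF3 at ZT4 in SD and LD, and none in PRR37. These sites of both sets were chosen after their values were seen.

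**Figure D4:**
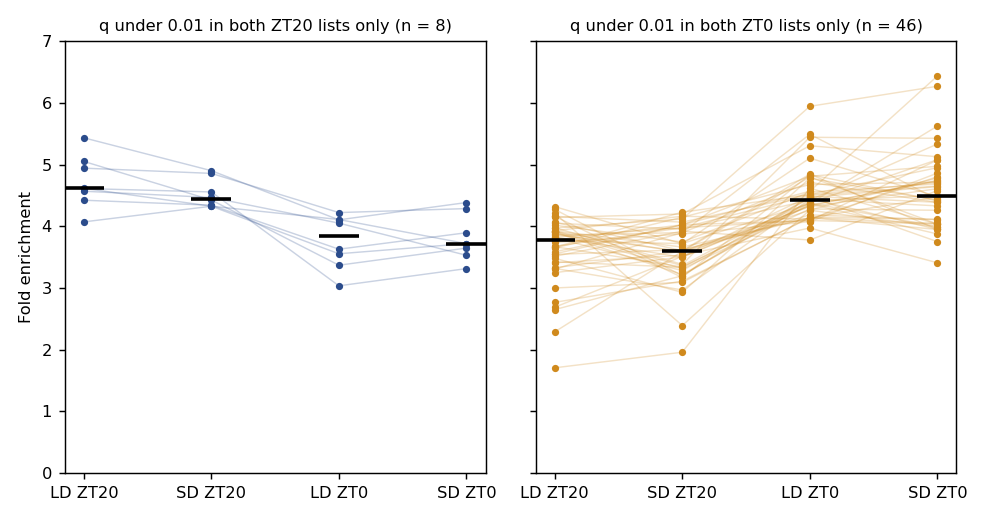
Fold enrichment (vertical axis) in the 4 lists (horizontal axis) at the 8 sites with q under 0.01 in both ZT20 lists only (left) and the 46 with q under 0.01 in both ZT0 lists only (right), with 1 line per site and black bars at the medians. The sites were chosen by q, which fixed the direction in part, and the medians differ by less than 1 unit of fold, from 3.72 to 4.61 on the left and from 3.59 to 4.49 on the right.

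For single regions, a test was possible only where all 4 lists gave a value. The log2 fold enrichment of the strongest peak, centred on each list's median, was fitted in limma with photoperiod as a block over 6152 regions. After Benjamini-Hochberg adjustment, 0 regions were higher at ZT20 (0% of those tested) and 1 at ZT0 (0.0163%). At an unadjusted p under 0.05, 152 and 190 regions passed.

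The 1 region called, Bd2:23385735-23386648, is also among the 46 sites above and overlapped the protein-coding gene LOC100835635. Its fold enrichment was 4.62 in LD ZT0 (80 fragments) and 4.04 in SD ZT0 (42 fragments), but 1.71 in LD ZT20 (37 fragments) and 1.96 in SD ZT20 (76 fragments), so both ZT0 values lay above both ZT20 values. The log2 difference, ZT20 minus ZT0, was -1.21 ± 0.18 (SE, limma, adjusted p = 0.000113). With scaled fragments in place of fold it was -0.66 (limma, adjusted p = 0.329). Fitted only among regions with q under 0.01 in at least 1 list it was -1.16, and the call was lost (limma, adjusted p = 0.413). With quantile normalisation it was -1.20 (limma, adjusted p = 0.0494). It was -1.12 without LD ZT0, -1.31 without SD ZT0, -1.09 without LD ZT20 and -1.34 without SD ZT20. The size thus held in each fit that left out a library. The call was lost without either ZT0 library and kept without either ZT20 library. The other libraries gave 3.31 in ELF3 LL at ZT0, 2.52 and 2.10 in ELF3 at ZT4 in LD and SD, 2.48 and 4.38 in PHYC, and 2.48 in PRR37. The second PHYC library, from ZT20, thus stood as high as the ZT0 libraries.

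The 4 next regions toward ZT0 did not pass, with adjusted p from 0.569 to 0.702 (limma). At Bd2:9111167-9111916, 1866 bp from LOC100830815, the folds were 3.26 in LD ZT0, 5.53 in SD ZT0, 1.82 in LD ZT20 and 3.53 in SD ZT20 (log2 difference -0.72 ± 0.18, SE, limma, adjusted p = 0.569). Without SD ZT20 that adjusted p was 0.00114. The others overlapped LOC100842448 (-0.62), LOC100823469 (-0.60) and LOC100834682 (-0.60). The 5 largest differences toward ZT20 were 0.59 to 0.66, each with adjusted p = 0.702 (limma), at regions overlapping the long non-coding RNA gene LOC104584796 and the protein-coding genes LOC100840198, LOC100843479 and LOC100834588 and at 1 region 1678 bp from LOC100843299. At Bd4:46991182-46991807, the first of them, the folds were 2.97 in LD ZT20 and 2.93 in SD ZT20 against 2.04 in LD ZT0 and 1.77 in SD ZT0, yet the ZT0 summits held 62 and 36 fragments against 42 and 58. With scaled fragments the difference there was -0.47, and at the region in LOC100840198 -0.06, so the direction of both changed with the measure.

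Differences between the times in LD did not track those in SD. The LD and SD differences share no ChIP library, and across the 6152 regions they had Pearson r = 0.00707 and Spearman rho = 0.00745, given as a description since regions are not independent replicates. The sign was the same in 49.9% of regions. The SD over regions was 0.253 for the LD difference and 0.267 for the SD difference on the log2 scale. A change over 1.5-fold in the same direction in both photoperiods was seen at 0 regions toward ZT20 and 2 toward ZT0, and in opposite directions at 1. Among the 672 regions with q under 0.01 in at least 1 list, r was 0.0706 and rho 0.0821, with the same sign in 53.1%.

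**Figure D5:**
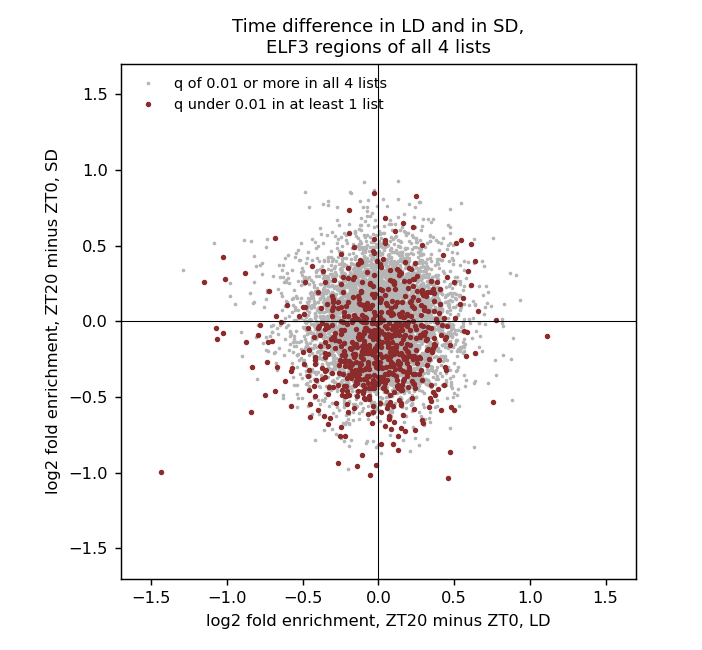
Difference in log2 fold enrichment, ZT20 minus ZT0, in LD (horizontal axis) and SD (vertical axis) for the 6152 regions in all 4 lists, centred on each list's median, with red points for the 672 that passed q under 0.01 in at least 1 list. The cloud is round (r = 0.00707), and the lone point at lower left is the region in LOC100835635.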

How the data were processed

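In the methods of the study, reads were aligned by bwa against the v3 reference of Brachypodium, and MACS2 peaks with q under 0.01 were kept. The submitters' processing notes name Trimmomatic, Bowtie2, Picard, deepTools and MACS2 and an Arabidopsis build, which differs from the chromosome names in the lists. Values deposited by the authors were the fold enrichment (a ratio), −log10 p and −log10 q, the summit, and a score equal to the whole part of 10 times −log10 p. The deposited lists had not been filtered on q. At q under 0.01 each ZT20 list held far fewer ELF3 peaks than the study reports as significant at ZT20. The cut at q under 0.01 made here therefore does not give back the study's own peak set. The use of 1 shared control was inferred from the values, since all 10 libraries gave the same background level per bp (0.00851), and the input sample itself was not analysed here.

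Peaks were joined by 1 bp of overlap. Fragments were recovered from fold = (sk + 1)/(background + 1) and the Poisson p, with s the library's scale and k a whole number. No peak of the 4 lists lacked a solution within 0.0003 on −log10 p, and 96.8% to 98.8% per list had exactly 1, which were used. Where a merged region held several peaks of a list, the strongest was taken, so summits can differ between lists. Genes came from the RefSeq table of assembly Brachypodium_distachyon_v3.0, which gives no strand, and peak coordinates count from 1. Tools were R 4.3.3 with limma 3.58.1, and Python 3.11.15 with scipy 1.17.1, pandas 2.3.3, numpy 2.4.6 and matplotlib 3.10.9. The functions were tested on simulated data.

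Named regions were the 12 per direction with the highest lower fold, and the 5 largest differences per direction among regions of all 4 lists. Genes of the study's list were to be named too, but none matched the table, and the other genes named were chosen from the table's symbols after their values were seen. The regions, gene lists and tests were chosen with earlier results of these data known. Alternatives were stricter thresholds, equal list lengths, other overlap rules, single photoperiods, omitted libraries, a 1 kb gene extension and other scalings. The planned motif search was not run, as no sequence was used here. The limma fits that omit a library had no photoperiod block, since 3 libraries leave no residual degrees of freedom with it, and a lone library is then assumed to vary like the others.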

Additional observations from a re-analysis of the deposited data

Results flagged for a closer look

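The number of peaks past q under 0.01 moved in opposite directions in the 2 photoperiods. In LD it was 341 at ZT20 and 322 at ZT0, a log2 ratio of 0.083, and in SD 167 at ZT20 and 490 at ZT0, a log2 ratio of -1.55. With 1 library for each condition the difference between the photoperiods was not tested. SD ZT20 was 2.30 times as deep as SD ZT0, and LD ZT20 0.944 times as deep as LD ZT0, and the part of depth in this difference was not tested.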

How the results depend on the processing

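With 1 library per condition, counts of regions depend on where peaks are cut. The ZT20-only count of 866 became 463 at −log10 p above 2 and 8 at q under 0.01, and the ZT0-only count of 839 became 519 and 46. Among genes, 453 and 514 became 12 and 52 at q under 0.01. With 1 list a side, LD alone gave 4908 regions at ZT20 and 6128 at ZT0 (2340 and 2752 genes), and SD alone 5611 and 6080 (2620 and 2807 genes). Leaving out 1 library gave 1656 to 3394 ZT20-only and 1616 to 4608 ZT0-only regions, and 1063 to 1436 and 1149 to 1744 genes. Counts with fewer lists a side are larger by construction. The order of the 2 directions was not stable. For regions, ZT0-only became the larger set at −log10 p above 2, at q under 0.01, in LD alone and in SD alone. For genes, ZT20-only became the larger with equal list lengths (515 against 439). Leaving out 1 library favours the time with 1 list left, which then needs fewer peaks and more absences. No order was therefore read from the counts without LD ZT0 (2286 against 4608 regions), SD ZT0 (1656 against 4168 regions) or SD ZT20 (1302 against 1234 genes). The other overlap rules and the 1 kb extension kept each count within 1.5 times.

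In regions of all 4 lists, the count called by limma was 1 without the photoperiod block (no replicate block, lowest adjusted p = 0.000531), without scaling and with quantile normalisation (adjusted p = 0.0494). It was 0 for regions with q under 0.01 (lowest adjusted p = 0.413, limma) and 0 with scaled fragments, an alternative chosen after seeing the data (0.0779, limma). Leaving out a library gave 0 to 3 calls. With scaled fragments the log2 difference turned from 0.66 to -0.47 at the region beside LOC100843704 and from 0.65 to -0.058 at that in LOC100840198. The Jaccard difference stayed positive in all 4 alternatives. It was 0.00289 at −log10 p above 2 and 0.0125 at q under 0.01, each with the smallest p possible (0.333, exact permutation). With equal list lengths it was 0.00137, and without regions within 5 kb of a chromosome end 0.00122 (each p = 0.667, exact permutation). The list length ratio stayed negative at q under 0.01 (mean log2 -0.74, p = 1 by exact sign-flip permutation), an alternative also chosen after seeing the data.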
